A study of Mus musculus with 6 samples.

Results

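Binding of 3 macrophage transcription factors was examined at the genes of matrix metalloproteinases (MMPs) and of tissue inhibitors of metalloproteinases (TIMPs). The 8 genes were Mmp8, Mmp9, Mmp12, Mmp13, Mmp14, Mmp19, Timp1 and Timp2, and every chromatin immunoprecipitation sequencing (ChIP-seq) peak whose deposited gene name was one of them was taken. This gave 79 of the 134964 peaks in 6 lists, which merged into 29 of 60856 regions. The C/EBPα lists held 18 such peaks in control and 21 after IL-4, the IRF8 lists 18 and 20, and the JUNB lists 2 and 0. Of the 8 genes, 7 had a peak and Timp1 had none.

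All samples were bone marrow-derived macrophages (BMDMs) of wild-type mice aged 8 to 12 weeks, differentiated for 6 days in L929 supernatant as a source of macrophage colony-stimulating factor. The control cells received no IL-4, and the treated cells were exposed for 1 h to 20 ng/ml of it. Each combination of antibody and condition was 1 sample, so no value below has a replicate, no spread is known and no test was possible. Cells were crosslinked with DSG and formaldehyde, and the antibody recognized C/EBPα, IRF8 or the AP-1 subunit JUNB. A peak is a stretch of the genome enriched for the precipitated factor. Its score, deposited without a unit, was read as the −log10 of a p- or q-value, which grows with sequencing depth and is no measure of coverage. The reading is uncertain. The lowest score here, 1.94, falls below the −log10 of the q-value limit that the paper's methods give. Depth was unknown and either of a pair of library kits was used, so a difference in depth or kit cannot be told apart from one of IL-4. The score ratios below are therefore ratios of peak scores between single libraries. Scores of different factors are not on a shared scale, so the levels of factors were compared as percentiles within their lists. Directions of difference after IL-4 were taken from the score ratio of each factor.

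MMPs are zinc-dependent proteases that cut collagens, elastin and other matrix proteins, and they also release or process cytokines and chemokines. Most are secreted as inactive precursors, Mmp14 is anchored in the cell membrane, and TIMPs bind the active enzymes and block them. Macrophages use these enzymes to cross tissue, to clear debris and to remodel scars. C/EBPα, IRF8 and AP-1 proteins occupy macrophage enhancers before a signal arrives, and IL-4 acts on macrophages mainly through STAT6. The comparison addresses whether the binding of these factors at the MMP and TIMP loci differed soon after the cytokine was added.

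The sequences that carry the results are shown here in mm10 (RefSeq GRCm38), plus strand, 5′ to 3′. Capitals mark 4 kinds of motif, searched on both strands. They were an AP-1 site (TGANTCA), a C/EBP site (TTGCNNAA or TTNNGCAA), the ETS/IRF composite element, and a STAT6-type site in which TTC and GAA stand 3 or 4 bases apart. Mmp8 had the highest C/EBPα score of the group at its promoter (the 200 bases before the transcription start site (TSS), chr9:7558229-7558428) and the lowest IL-4 to control ratio of IRF8 scores at −1.9 kb (200 bases around the IRF8 control peak, chr9:7556404-7556603).
Mmp8 promoter: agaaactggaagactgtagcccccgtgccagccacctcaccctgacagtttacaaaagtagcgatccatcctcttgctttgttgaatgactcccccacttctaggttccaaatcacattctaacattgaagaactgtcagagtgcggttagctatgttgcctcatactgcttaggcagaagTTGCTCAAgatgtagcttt
Mmp8 −1.9 kb site: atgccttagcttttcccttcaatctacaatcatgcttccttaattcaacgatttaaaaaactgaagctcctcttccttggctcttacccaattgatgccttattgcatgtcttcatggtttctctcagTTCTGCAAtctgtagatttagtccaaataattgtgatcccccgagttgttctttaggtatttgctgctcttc

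Mmp12 and Mmp19 carried the only JUNB peaks, both in control. The windows are 200 bases around those peaks, chr9:7337192-7337391 for Mmp12 and chr10:128779511-128779710 for Mmp19. The Mmp12 site at −15.4 kb (chr9:7331913-7332112) held the highest C/EBPα score of the group outside the Mmp8 promoter. At Mmp14 +11.1 kb (chr14:54442648-54442847) the C/EBPα and IRF8 scores differed in opposite directions.
Mmp12 −15.4 kb site: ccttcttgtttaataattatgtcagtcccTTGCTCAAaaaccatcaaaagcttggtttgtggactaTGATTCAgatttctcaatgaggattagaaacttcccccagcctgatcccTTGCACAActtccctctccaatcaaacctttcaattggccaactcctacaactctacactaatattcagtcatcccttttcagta
Mmp12 −10.2 kb site: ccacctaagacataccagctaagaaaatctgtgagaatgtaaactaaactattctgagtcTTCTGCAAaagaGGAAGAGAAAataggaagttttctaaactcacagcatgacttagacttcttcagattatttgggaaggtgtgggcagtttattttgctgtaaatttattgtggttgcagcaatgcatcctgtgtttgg
Mmp19 −11.3 kb site: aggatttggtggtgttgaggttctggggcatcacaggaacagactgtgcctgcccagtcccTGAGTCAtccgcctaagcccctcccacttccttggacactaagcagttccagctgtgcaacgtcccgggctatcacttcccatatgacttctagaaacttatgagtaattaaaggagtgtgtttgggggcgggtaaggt
Mmp14 +11.1 kb site: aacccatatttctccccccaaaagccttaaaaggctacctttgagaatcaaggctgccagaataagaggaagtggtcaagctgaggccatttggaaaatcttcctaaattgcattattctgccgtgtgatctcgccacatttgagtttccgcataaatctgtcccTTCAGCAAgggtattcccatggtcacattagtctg

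Peaks present only after IL-4 lay at 6 regions. Mmp13 +19.2 kb, without a STAT6-type site at its centre, is not shown. Nor are Mmp12 −1.7 kb and Mmp13 −19.1 kb, which held such a site and had control peaks. The 5 windows below were thus chosen partly by this site and do not give its frequency. They are the region gained by C/EBPα and IRF8 together (chr9:7547687-7547886) and those with a STAT6-type site at their centre, at Mmp8 (chr9:7552102-7552301), Mmp12 (chr9:7330480-7330679), Mmp13 (chr9:7261635-7261834) and Timp2 (chr11:118360701-118360900). The window of the joint region is centred on the IRF8 peak. The C/EBPα peak there ends at chr9:7547737, before the marked site. The share of all regions gained by both factors is not given here.
Mmp8 −10.6 kb site: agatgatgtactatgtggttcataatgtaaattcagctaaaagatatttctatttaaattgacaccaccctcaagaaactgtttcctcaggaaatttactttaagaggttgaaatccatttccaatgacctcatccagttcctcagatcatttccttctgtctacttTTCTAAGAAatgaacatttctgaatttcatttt
Mmp8 −6.2 kb site: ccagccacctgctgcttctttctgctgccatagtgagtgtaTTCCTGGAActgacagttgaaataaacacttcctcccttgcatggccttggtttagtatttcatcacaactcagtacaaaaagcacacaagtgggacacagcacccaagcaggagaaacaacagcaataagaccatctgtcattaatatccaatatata
Mmp12 −16.8 kb site: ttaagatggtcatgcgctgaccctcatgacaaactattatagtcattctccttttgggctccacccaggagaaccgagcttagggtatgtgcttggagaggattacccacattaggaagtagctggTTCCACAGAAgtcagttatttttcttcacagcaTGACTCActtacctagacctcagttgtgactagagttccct
Mmp13 −10.8 kb site: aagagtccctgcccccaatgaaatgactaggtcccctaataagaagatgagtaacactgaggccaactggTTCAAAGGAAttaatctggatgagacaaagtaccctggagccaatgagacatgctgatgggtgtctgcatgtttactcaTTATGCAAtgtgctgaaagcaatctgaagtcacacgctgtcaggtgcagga
Timp2 −5.4 kb site: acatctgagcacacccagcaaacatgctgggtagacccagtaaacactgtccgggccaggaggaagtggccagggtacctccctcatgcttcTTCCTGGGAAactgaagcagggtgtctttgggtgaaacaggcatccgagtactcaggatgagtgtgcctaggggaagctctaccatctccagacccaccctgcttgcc

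The collagenase genes Mmp8 and Mmp13 lie on chromosome 9 in one cluster with Mmp12, and these 3 genes held 17 of the 29 regions and 44 of the 79 peaks. Mmp8 (RefSeq chr9:7558429-7568486) encodes neutrophil collagenase. At its promoter (chr9:7558159-7558588) the C/EBPα score was 113.40 in control and 125.30 after IL-4, at percentile 98.8 and 98.99 of the respective lists. The IRF8 score at the same place was 12.20 and 6.62. Thus C/EBPα ranked near the top of its list at the Mmp8 promoter in both conditions, while IRF8 stood at percentile 56.2 in control and 34.4 after IL-4. At Mmp8 −1.9 kb the C/EBPα score was 26.85 in control and 25.30 after IL-4. There the IRF8 score was 44.67 in control and 13.88 after IL-4, or 0.311 times the control score, the lowest ratio among the 34 pairs of shared peaks at these genes. The peak was present in both lists, at percentile 87.5 in control and 62.1 after IL-4. Further upstream Mmp8 had peaks after IL-4 only, with a C/EBPα score of 1.94 (percentile 0.0447 of its list) and an IRF8 score of 5.44 at −10.6 kb, and a C/EBPα score of 4.90 at −6.2 kb on an MTE2b LTR element.

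Mmp13 (RefSeq chr9:7272514-7283333) encodes a collagenase that cleaves fibrillar collagens of bone and cartilage. It had the most regions of the 8 genes, 7. Its highest scores were 18.53 for C/EBPα and 45.75 for IRF8. At its promoter (chr9:7272188-7272557) the C/EBPα score was 6.00 in control and 5.13 after IL-4, with IRF8 scores of 15.69 and 17.85. The strongest IRF8 site of Mmp13, at −12.7 kb on an Lx8 LINE element, had no C/EBPα peak and scored 45.75 in control and 33.77 after IL-4. C/EBPα alone was at −19.1 kb, with 14.69 and 18.53, and at −2.2 kb, with 17.54 and 11.73. Both factors were at −21.3 kb, with C/EBPα scores of 15.33 and 11.85 and IRF8 scores of 14.85 and 13.09. Each factor also had 1 weak Mmp13 peak after IL-4 only, C/EBPα at −10.8 kb (score 5.18) and IRF8 at +19.2 kb (score 5.30), the latter on an MLT2B3 LTR element.

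Mmp9 encodes gelatinase B, which degrades denatured collagen and basement membrane collagen. Its 3 regions left the promoter without a peak of any factor. At −5.2 kb (chr2:164942824-164943279) the C/EBPα score was 34.89 in control and 35.58 after IL-4, with IRF8 scores of 58.60 and 65.76. This region lies upstream of the curated TSS but inside the span that RefSeq gives the gene through a predicted transcript (chr2:164940326-164955850). At −12.2 kb the C/EBPα score was 11 and 7.26 and the IRF8 score 13.80 and 14.66. All but the C/EBPα peak after IL-4 were annotated on an MLT1H1 LTR element there, and that peak on a URR1A DNA element. Exon 10 held an IRF8 peak in control only, with a score of 3.57, at percentile 6.52 of its list.

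Mmp12 encodes macrophage elastase and had the most peaks of the group, 17 on 6 regions (RefSeq gene chr9:7344397-7360461). At −15.4 kb (chr9:7331794-7332230) the C/EBPα score was 68.70 in control and 76.33 after IL-4, with IRF8 scores of 49.58 and 42.91. At −10.2 kb (chr9:7336734-7337536) all 3 factors had a peak in control. The C/EBPα score there was 25.54 in control and 35.35 after IL-4, the IRF8 score was 83.22 and 61.27, and JUNB had a score of 10.27 in control and no peak after IL-4. The −10.2 kb region thus held the highest IRF8 score of the 8 genes in control, and it kept both other factors where the JUNB peak was absent. At −1.7 kb the C/EBPα score was 6.78 and 8.10, and the IRF8 score was 30.80 and 39.56. IRF8 alone was at −3.1 kb, with 18.18 and 13.09, and this region (chr9:7344181-7344466) contains a second curated RefSeq start of Mmp12. The annotated promoter at −70 bp carried a C/EBPα peak in control only (score 5.65), and −16.8 kb a C/EBPα peak after IL-4 only (score 4.84).

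Mmp14 encodes a membrane-anchored protease that activates the precursor of Mmp2, and it had 2 regions, both bound by C/EBPα and IRF8 in both conditions. In intron 1 (chr14:54433496-54434032) the C/EBPα score was 22.72 in control and 15.19 after IL-4, with IRF8 scores of 54.86 and 38.16. The other region (chr14:54442595-54442901) began 139 bp past the annotated gene end, at +11.1 kb. Its C/EBPα score was 48.34 in control and 27.02 after IL-4, with IRF8 scores of 12.39 and 29.33. The 2 Mmp14 regions differed in this respect, since both factors scored lower after IL-4 in intron 1 and only C/EBPα did downstream of the gene.

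Mmp19 encodes a secreted MMP with basement membrane substrates. Its promoter (chr10:128790612-128791069) was a C/EBPα site without an IRF8 or JUNB peak, with scores of 55.54 in control and 41.48 after IL-4. At −11.3 kb (chr10:128779326-128779821) all 3 factors had a peak in control. The C/EBPα score was 10.40 and 16.05, the IRF8 score 26.26 and 25.41, and JUNB had a score of 13.80 in control and no peak after IL-4. At −10.5 kb IRF8 alone scored 7.83 in control and 3.32 after IL-4, or 0.424 times the control score.

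Among the inhibitors, Timp2 (RefSeq chr11:118301061-118355411, minus strand), which also takes part in the activation of the Mmp2 precursor by Mmp14, had 4 regions. At −7.7 kb (chr11:118362891-118363394) the IRF8 score was 46.10 in control and 59.68 after IL-4, while the C/EBPα score was 5.77 and 6.32. IRF8 stood at percentile 87.9 of its control list there and C/EBPα at percentile 20.6, the reverse of the order at the Mmp8 promoter. C/EBPα alone was at −7.2 kb, with 9.74 and 9.87. IRF8 alone was in intron 1, with 13.29 and 6.73, and a peak at −5.4 kb was present after IL-4 only (score 4.99). Timp1 (RefSeq chrX:20870166-20874737), an inhibitor of most soluble MMPs, had no peak in any of the 6 lists under its own name or over its gene. The nearest peak lay 48740 bp downstream and was named for Syn1, and the nearest upstream lay at 58104 bp and was named for Araf.

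**Figure D1:**
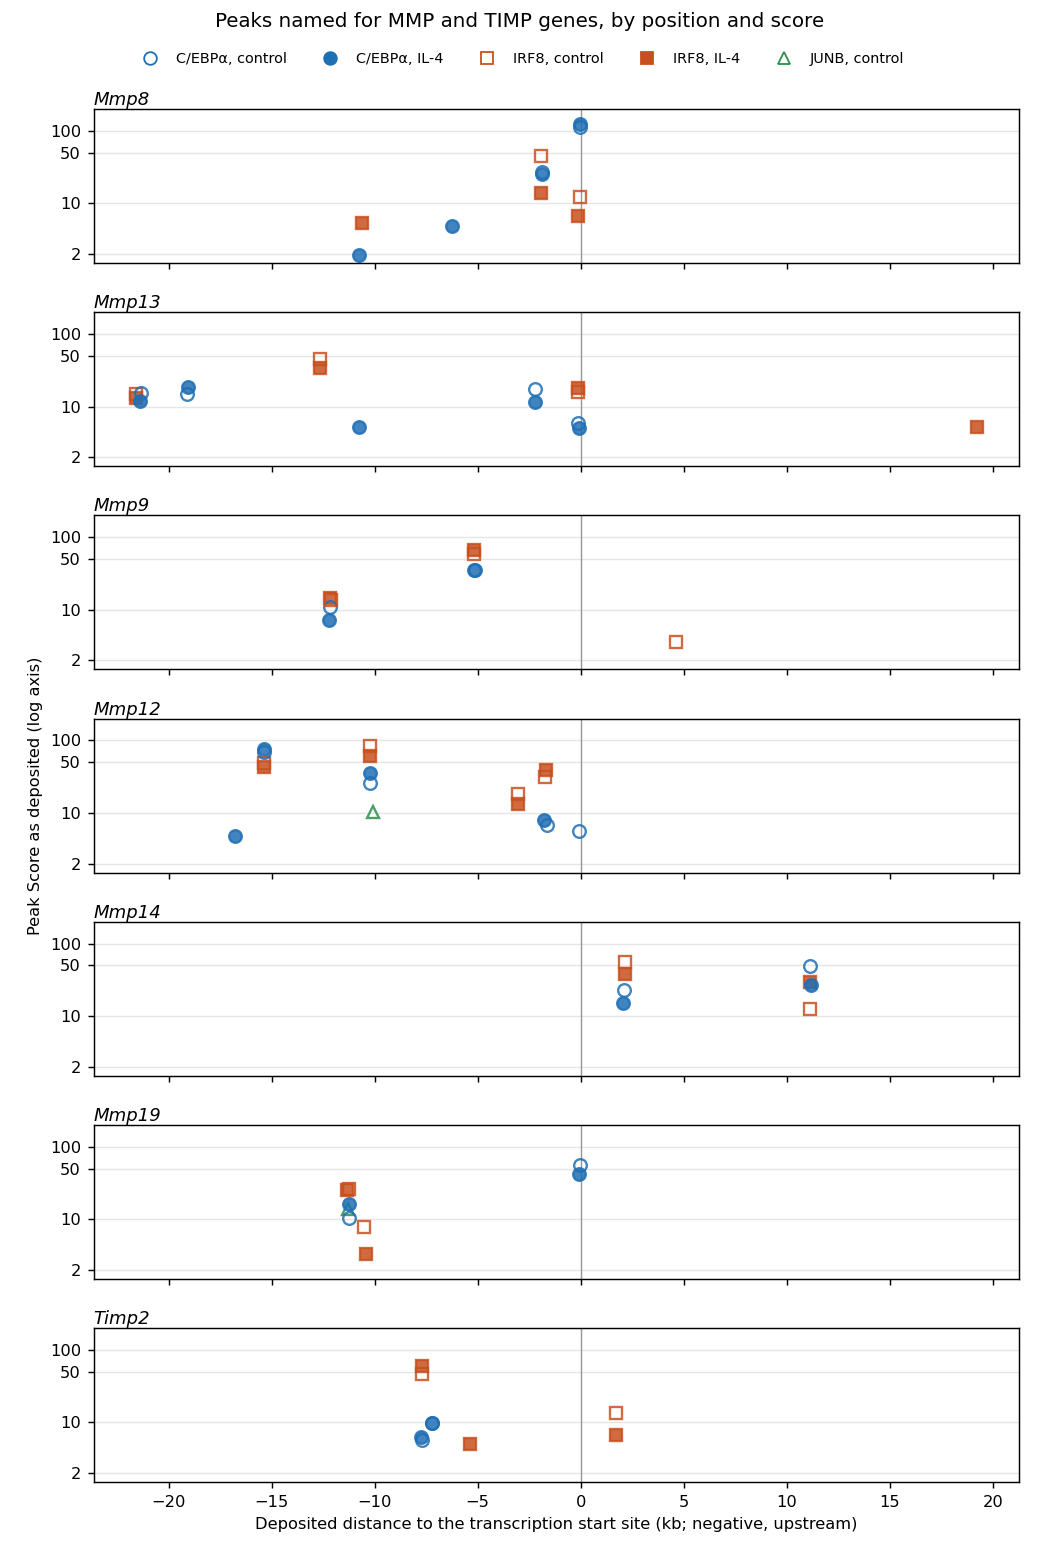
Every peak at the 7 genes with a peak, by deposited distance to the TSS in kb (x axis) and deposited score on a log axis (y axis). Open symbols are control and filled symbols IL-4, with 1 sample each. Most open symbols have a filled partner at the same distance, the C/EBPα peaks at the Mmp8 promoter (113.40 and 125.30) are the highest of that factor, and the JUNB triangles at Mmp12 and Mmp19 have no filled partner.

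Ordered by the highest C/EBPα score in either condition, the genes were Mmp8 (125.30), Mmp12 (76.33), Mmp19 (55.54), Mmp14 (48.34), Mmp9 (35.58), Mmp13 (18.53) and Timp2 (9.87). The order by IRF8 was Mmp12 (83.22), Mmp9 (65.76), Timp2 (59.68), Mmp14 (54.86), Mmp13 (45.75), Mmp8 (44.67) and Mmp19 (26.26). With 1 sample per group it is unknown which neighbours in these orders differ beyond the spread between samples. Mmp8 thus headed the C/EBPα order and stood second to last in the IRF8 order. Timp2 was last by C/EBPα and the third by IRF8.

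Lost and gained peaks were counted beside their shares of the whole lists. A peak was called lost when the control peak of a factor overlapped no IL-4 peak, and gained in the opposite case. C/EBPα lost 1 of 18 control peaks, at the Mmp12 promoter, against 21.4% of all C/EBPα control peaks. It gained 4 of 21 peaks, against 22% of all C/EBPα peaks after IL-4. IRF8 lost 1 of 18 peaks, in the Mmp9 exon, against 21.4% of all its control peaks, and gained 3 of 20, against 30.4% of all. The gained shares of 19.0% for C/EBPα and 15.0% for IRF8 stood beside 22% and 30.4% of the whole lists, and the lost share of 5.56% for each factor beside 21.4%. These whole-list shares were not matched for score. Over all control peaks, the median score was 5.62 for lost and 14.83 for kept C/EBPα peaks, and 5.33 and 13.7 for IRF8. The control peaks here had median percentiles of 63.7 for C/EBPα and 73.3 for IRF8.

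JUNB lost 2 of 2 peaks, against 64.2% of all its control peaks, and had no gained peak here, against 39.2% of all its peaks after IL-4. The lost JUNB peaks, at Mmp19 and Mmp12, stood at percentile 82.9 and 68.9 of the JUNB control list. Among all JUNB control peaks with a score of at least 10, 40.5% were lost, and of those that also lay in a region present in all 4 C/EBPα and IRF8 lists, 35.6% (315 of 885) were. With 2 peaks, no direction for the group can be drawn from this count.

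The lost and gained C/EBPα and IRF8 peaks were weak. The lost ones scored 5.65 for C/EBPα and 3.57 for IRF8, and the gained ones between 1.94 and 5.18 for C/EBPα and between 4.99 and 5.44 for IRF8. Over all peaks the median score was 5.885 for gained C/EBPα peaks and 14.785 for those also present in control, and 4.99 and 14.86 for IRF8. Of the 7 gained peaks, 6 lay on chromosome 9 at Mmp8, Mmp12 or Mmp13 and the other at Timp2. Those genes of chromosome 9 held 44 of the 79 peaks in all lists, and 7 gained peaks are too few to show a concentration there.

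**Figure D2:**
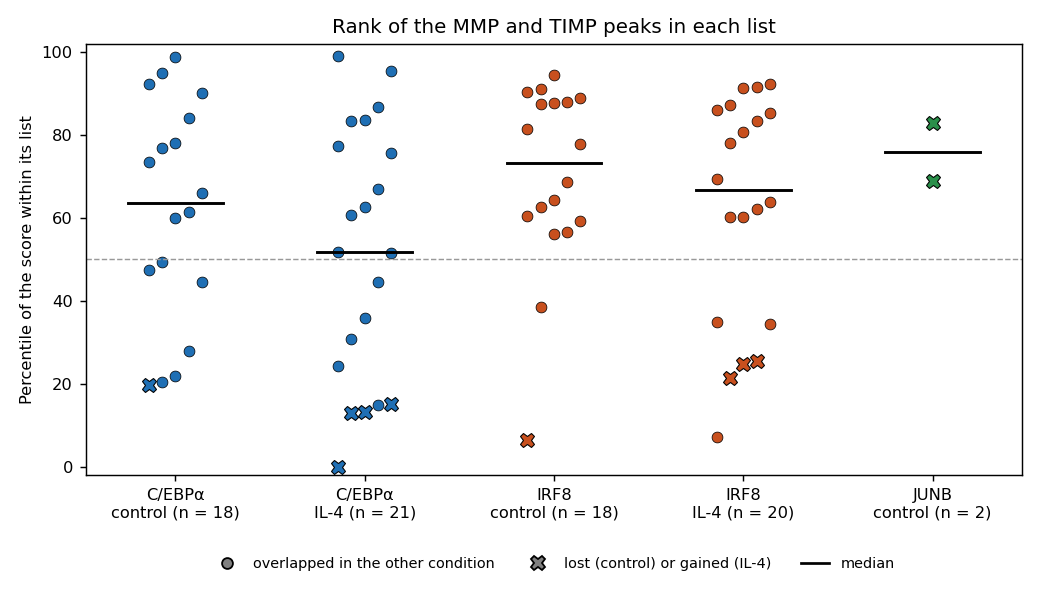
Percentile of each MMP and TIMP peak score within its own list (y axis, 100 is the highest score), by list (x axis). Crosses are peaks lost or gained, circles are peaks that overlap one of the other condition, bars are medians and the dashed line is the middle of each list. The crosses of C/EBPα and IRF8 lie at percentile 25.4 or below, and the JUNB crosses lie at 68.9 and 82.9.

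The rank of the peaks within their lists was described by percentiles. In control, the median percentile was 63.7 for the 18 C/EBPα peaks and 73.3 for the 18 IRF8 peaks. After IL-4 it was 51.9 for 21 C/EBPα peaks and 66.7 for 20 IRF8 peaks. Peaks above the median score of their list numbered 11 of 18 for C/EBPα in control and 12 of 21 after IL-4. For IRF8 they numbered 16 of 18 and 14 of 20. The IL-4 medians include the gained peaks of both factors, all of which stood at percentile 25.4 or below.

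Scores of shared peaks were compared next, over 17 pairs for each of C/EBPα and IRF8 (JUNB had none). For C/EBPα the score was higher after IL-4 in 9 pairs and lower in 8, with a median log2 ratio of 0.02, beside −0.004 over all 19111 pairs. No C/EBPα pair differed by 2-fold or more, where 7.72% of all pairs were at least 2-fold higher and 6.56% at least 2-fold lower. For IRF8 the score was higher in 6 pairs and lower in 11, with a median log2 ratio of −0.21, beside 0.08 over all 29110 pairs. One pair was at least 2-fold higher, at Mmp14 +11.1 kb (2.37 times), against 11.3% of all pairs. The pairs at Mmp8 −1.9 kb and Mmp19 −10.5 kb were at least 2-fold lower, 2 of 17 against 7.96% of all. The spread of the log2 ratio between pairs was 0.69 (SD) for IRF8 and 0.42 for C/EBPα at these genes, and 0.79 and 0.71 over all pairs. With each score divided by the median score of its list, the IRF8 median log2 ratio at these genes was −0.10. Without replicates it is unknown whether these medians differ from 0 by more than the variation between samples.

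**Figure D3:**
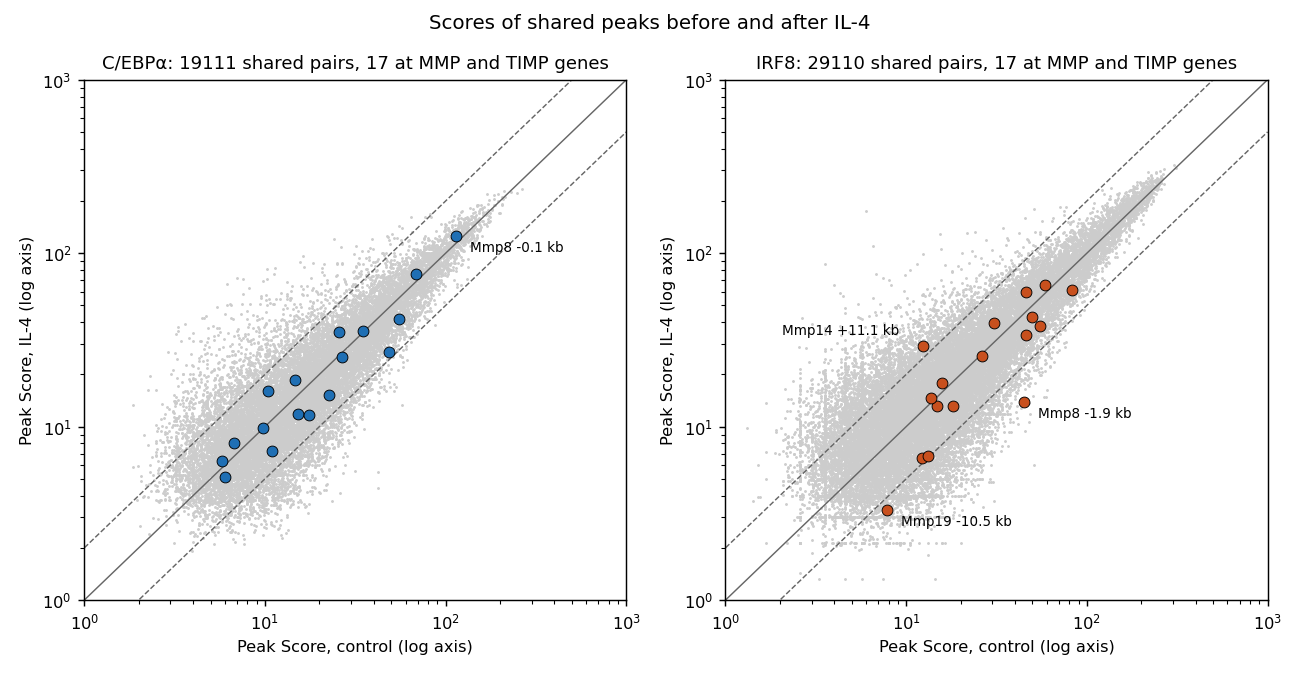
Score in control (x axis) against score after IL-4 (y axis) for shared peaks, both on log axes, with grey points for all pairs and coloured circles for the 17 pairs at MMP and TIMP genes in each panel. The solid line is equality and the dashed lines are 2-fold. All C/EBPα circles lie between the dashed lines, and the IRF8 circles labelled Mmp14, Mmp8 and Mmp19 lie outside.

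C/EBPα and IRF8 shared many of these regions. Both factors were present in both conditions at 13 of 29 regions, or 44.8%, beside 17.8% of all 60856 regions, and every one of the 7 genes had at least 1 such region. C/EBPα alone held 4 of the 29 regions in both conditions, beside 5152 of all 60856 regions. IRF8 alone held another 4 of the 29, beside 14463 of all 60856. In control the centres of the C/EBPα and IRF8 peaks at the 13 regions lay a median of 17.5 bp apart, beside 46 bp at 14176 regions in the whole series, and 1 of the 13 pairs of centres was over 100 bp apart (265.5 bp, at Mmp13 −21.3 kb). All 3 factors met at 2 regions in control, or 6.9% beside 4.19% of all, and at 0 after IL-4, beside 2.61%.

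At 7 of these 13 regions the C/EBPα and IRF8 scores differed in opposite directions after IL-4, or 53.8% beside 43.9% of 10819 regions in the whole series. C/EBPα was higher and IRF8 lower at the Mmp8 promoter, Mmp12 −15.4 kb, Mmp12 −10.2 kb and Mmp19 −11.3 kb. The reverse held at Mmp9 −12.2 kb, the Mmp13 promoter and Mmp14 +11.1 kb. These directions are those of the deposited scores, and some depend on the measure. By percentile, IRF8 at Mmp19 −11.3 kb was not lower after IL-4 (77.96 in control and 77.991 after IL-4). At Mmp9 −5.2 kb the percentiles differed in opposite directions, at 84.1 and 83.7 for C/EBPα and 91.0 and 92.4 for IRF8. The log2 ratios of the 2 factors were at least 1 apart in opposite directions at 2 of 13, Mmp14 +11.1 kb and the Mmp8 promoter, against 17.5% of all such regions, a share close to that here.

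Most of the peaks were annotated as intergenic but lay nearer to a TSS than peaks in general. Intergenic peaks made up 13 of 18 in each of the C/EBPα and IRF8 control lists, or 72.2%, beside 43% of each whole list. In the same lists intron peaks were 1 of 18 for C/EBPα, beside 46.2%, and 2 of 18 for IRF8, beside 45.6%. Promoter peaks were 4 of 18 for C/EBPα (22.2%, beside 6.88%) and 2 of 18 for IRF8 (11.1%, beside 7.25%). The median distance to the TSS was 6180 bp for the C/EBPα control peaks and 6427.5 bp for the IRF8 ones, beside 20235 and 20951 bp for the whole lists, and none of the 79 peaks was farther away than 21605 bp. Peaks annotated to a promoter were present at Mmp8, Mmp12, Mmp13 and Mmp19 for C/EBPα, and at Mmp8 and Mmp13 for IRF8. The IRF8 region at Mmp12 −3.1 kb, annotated as intergenic, also contains a curated start of that gene. The Mmp9, Mmp14, Timp1 and Timp2 promoters had no peak of any factor. The deposited gene name is that of the nearest TSS, so sites that act on these genes from afar, or that were named for a neighbour, are not counted. This includes peaks inside the genes themselves. Of the 9 peaks that overlapped the Mmp8 gene and the 7 that overlapped Timp2, only some bore that gene's name. Mmp27, which follows Mmp8 in the cluster, had 4 regions with scores up to 142.96 and kept all of its peaks, including 1 JUNB peak.

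Sequence motifs were counted in the 200 bases at the centre of each region. The AP-1 site was present in 6 of 29 regions (20.7%), beside 14.2% of all regions, and the C/EBP site in 7 (24.1%), beside 18.4%. The ETS/IRF composite was present in 0, beside 10.8%. The Mmp12 window at −10.2 kb printed above does hold a composite element, since it is centred on the JUNB peak and not on the merged region. At the JUNB peaks, the Mmp19 window held an AP-1 site and the Mmp12 window did not. Median GC content was 46.0% for these regions and for all.

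The STAT6-type site was present at 6 of 29 region centres (20.7%), beside 14.4% of all. Over the whole merged regions the counts were 11 of 29 (37.9%), beside 21.7% of all. Of the 6 sites at region centres, 4 were among the 6 regions with peaks after IL-4 only (Mmp8 −6.2 kb, Mmp12 −16.8 kb, Mmp13 −10.8 kb and Timp2 −5.4 kb) and 2 were among the other 23 (Mmp12 −1.7 kb and Mmp13 −19.1 kb). Over the whole series the shares were 20.4% of 13452 regions with peaks after IL-4 only and 12.7% of 47404 regions with a control peak. This split was chosen after the values were seen, it rests on 6 weak regions, and a match of letters is not a bound site. At Mmp8 −10.6 kb the printed window holds a STAT6-type site that lies outside the central 200 bases of the merged region.

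Other proteolysis genes were a list of 42 (further MMPs and TIMPs, ADAM and ADAMTS proteases, the plasminogen activator system and cathepsins), of which 26 had a peak. They lost 9 of 53 C/EBPα control peaks, beside 21.4% of all, and gained 9 of 53, beside 22%. For IRF8 they lost 10 of 68, beside 21.4% of all, and gained 19 of 76, beside 30.4%. For JUNB they lost 5 of 13, beside 64.2% of all, and gained 1 of 9, beside 39.2%. A region changed in 2 factors at Adam9 and Plaur only. The same share over all regions is not given here, so it is unknown whether this is few or many. In intron 1 of Adam9, a membrane-bound protease gene, C/EBPα and IRF8 had peaks after IL-4 only, with scores of 13.7 and 9.33. At Plaur, the urokinase receptor gene, C/EBPα had a peak of 5.36 after IL-4 only and IRF8 a peak of 4.0 in control only. Ctsk, which encodes the collagen-degrading cathepsin K, lost 3 of 3 JUNB peaks, beside the 64.2% lost of all JUNB control peaks, and for IRF8 it gained 3 of 7 peaks and lost 1 of 5.

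Peaks within 100000 bp of the TSS were found at 9 of 11 macrophage marker symbols, and the other 2 are newer names of genes the files list as Emr1 and Sfpi1, both with peaks. Peaks were also found at 1 of 5 fibroblast, 4 of 7 neutrophil and 4 of 5 lymphocyte markers. A peak near a gene is not its expression, so these counts do not measure the purity of the cultures.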

How the data were processed

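ChIP-seq was analysed from 6 deposited peak lists of mouse BMDMs (C/EBPα, IRF8 and JUNB, control or IL-4, 1 sample each). Per the submitters' processing notes, the authors used BWA 0.7.10, SAMtools 0.1.19, MACS2 2.0.10 and HOMER 4.2 on mm10, called peaks per sample under a q-value limit and removed blacklisted peaks. The deposited Peak Score was read as the −log10 of a p- or q-value, a reading inferred from its values and uncertain. The deposited distances (bp) and gene names were used as given. The control library is not given in the sources used here. Read depth is unknown, which leaves the precision of each score unknown.

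Members were found by gene name. Peaks of a factor were shared at an overlap of at least 1 bp and paired one-to-one, largest overlap first. Peaks of all lists were merged into regions, each with the highest score per list and the gene of its strongest peak. Motifs and sequences were read from RefSeq GRCm38, the assembly mm10 names, in which no peak ran past a chromosome end. Deposited starts were used as written, with 1 bp of uncertainty. All members were named, and the other proteolysis genes only where a region changed in 2 factors. Ctsk, Mmp27 and the split by peaks after IL-4 only were chosen after their values were seen. The members and lists were chosen with earlier results of these data known. No test was run. Alternatives varied the overlap, score, rank, distance, scaling, peak width and motif window. Python 3.11.15, numpy 2.4.6, pandas 2.3.3, pysam 0.24.0 and matplotlib 3.10.9 were used, and overlaps were checked against bedtools 2.31.1 and on simulated lists.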

Additional observations from a re-analysis of the deposited data

Results flagged for a closer look

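At Mmp14 +11.1 kb, C/EBPα scored lower after IL-4 (48.34 and 27.02) and IRF8 higher (12.39 and 29.33), and the log2 ratio of C/EBPα minus that of IRF8 was −2.08. At the Mmp8 promoter the order was the opposite, with C/EBPα at 113.40 and 125.30, IRF8 at 12.20 and 6.62, and a difference of 1.03 on the log2 scale. These regions were flagged because the log2 ratios of the 2 factors, each from a single sample pair, had opposite signs and lay at least 1 apart. The difference was not tested, since each factor had 1 sample per condition. Over all regions with both factors in both conditions 17.5% met the same limit.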

How the results depend on the processing

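Of 46 alternatives, 38 left their result within 1.5 times the main count, within 1 SD between pairs or with the same sign, and 8 moved it. Some of the 38 could not have moved. The distance limit of 100000 bp removed no peak, since none lay farther from the TSS than 21605 bp. With no JUNB peak here after IL-4, gained JUNB peaks and regions of all 3 factors after IL-4 could only number 0. The SD was 0.42 for C/EBPα and 0.69 for IRF8, wide beside median log2 ratios of 0.02 and −0.21. The count of 38 is therefore no measure of robustness. With only peaks scoring at least 10 called, lost and gained peaks were 0 and 0 for C/EBPα and 0 and 0 for IRF8, where they had been 1, 4, 1 and 3, because every lost or gained peak of these factors scored less. The 2 lost JUNB peaks scored above that limit. Rank matching gave 2 lost IRF8 peaks in place of 1, by shortening the IL-4 list to the length of the control list. Percentile ranks put the median C/EBPα difference at −0.447 percentile points, where the median log2 ratio was 0.02, so the sign changed with the measure. For IRF8 the difference was −2.49 points, the same sign as the ratio, and dividing scores by the list median took the IRF8 median log2 ratio from −0.21 to −0.10. Motifs counted over the whole merged region in place of its central 200 bases gave 1 region with an ETS/IRF composite, where there had been 0, and 11 with a STAT6-type site (37.9%, beside 21.7% of all regions), where there had been 6, since more sequence was searched. No paired analysis was possible because each factor and condition had 1 sample, and for the same reason no replicate could be left out. Unknown depth limits every count of lost and gained peaks.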
